A study of Mus musculus with 6 samples.

Results

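Interferon-stimulated genes are the genes that a cell switches on after it has sensed an interferon. The 40 followed here were taken by their symbols from a list of such genes, and all 40 were found in each of the 6 libraries, which list 24421 symbols. All 40 passed the filter on low values, as did 18413 genes in all. RNA-seq was run on cells sorted by fluorescence from the olfactory bulbs of adult mice on a C57BL/6 background, with 1 library per mouse, 3 from control and 3 from Sox9 KO males. Every mouse, controls included, had received AAV-GFAP-iCre-P2a-TurboRFP in the bulb, a virus whose GFAP promoter makes astrocytes express the recombinase Cre and the red fluorescent protein TurboRFP, and bulbs were taken 4 weeks later. The control mice were C57BL/6J with the normal Sox9 gene, and the KO mice were Sox9fl/fl, so that Cre could delete Sox9, a transcription factor of astrocytes. The sort rested on TurboRFP, and the sorted cells went straight into lysis buffer, without a check of purity after sorting, and the study judged purity from known marker genes in the RNA-seq. The comparison asks how these genes differed between sorted cells of Sox9 KO and control bulbs.

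Type I interferons bind a receptor whose kinases switch on a complex, with Stat2 and Irf9 among its parts, that binds the interferon-stimulated response element of target genes. Interferon-gamma acts through another receptor and through the gamma-activated site. The products sense foreign nucleic acid, block steps of viral replication or attack vacuoles that hold microbes. In the brain, microglia and astrocytes can both respond to interferons. In the GENCODE M21 annotation of GRCm38, the build called mm10 in the labels, the 40 genes lie on 13 chromosomes, and several families sit in clusters. The guanylate-binding proteins Gbp5, Gbp7, Gbp3 and Gbp2 lie together on chromosome 3, between 142493978 and 142638008, Oas2, Oas3 and Oas1a on chromosome 5, between 120730333 and 120907521, and the 3 Ifit genes on chromosome 19, between 34550694 and 34650009.

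The 2 elements can be read in the promoters. Of the 40 genes, 32 had a promoter sequence in the RefSeq table of GRCm38.p6, taken here as the 250 bases before the start of the gene. The core of the response element, GAAANNGAA, was searched on both strands and occurred in 17 of the 32 genes (53.1%), against 8.18% of 27025 genes with a promoter in the table, or 7.13% of all 32851 promoters. The gamma-activated site, TTCNNNGAA, reads the same on both strands and occurred in 9 of the 32 (28.1%), against 8.13% of genes, or 7.02% of promoters. A match of one element can overlap a match of the other, as in Bst2, or of itself, as in the run of Isg15. The stretches printed here hold the matches of 5 genes that the results turn on: Irf1, Irf8, Gbp7 and Oas3 were among the members called higher in KO, and Isg15 was not. They are written 5′ to 3′ on the strand of the gene, with the bases of every match in capitals.
Irf1, chr11:53769904-53769952, plus strand: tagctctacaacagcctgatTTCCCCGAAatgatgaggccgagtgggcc
Irf8, chr8:120736167-120736233, plus strand: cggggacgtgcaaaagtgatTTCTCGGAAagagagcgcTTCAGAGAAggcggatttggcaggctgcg
Gbp7, chr3:142530210-142530312, plus strand: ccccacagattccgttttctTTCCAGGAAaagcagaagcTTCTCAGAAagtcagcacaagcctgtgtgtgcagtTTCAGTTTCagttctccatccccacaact
Oas3, chr5:120777700-120777754, minus strand: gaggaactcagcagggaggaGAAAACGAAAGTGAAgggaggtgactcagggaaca
Isg15, chr4:156200856-156200916, minus strand: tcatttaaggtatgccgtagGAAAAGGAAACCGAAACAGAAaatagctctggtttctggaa
Irf1 and Irf8 held only the gamma-activated site in this window, Oas3 and Isg15 only the response element, and Gbp7 both. Oas3 and Isg15 each carried response elements that overlap by 3 bases, and the KO libraries were far above the controls for Oas3 and overlapped them for Isg15. Over all members, the response element occurred in 10 of the 19 called genes with a promoter and in 7 of the 13 others, and the gamma-activated site in 6 and 3. These are matches of letters, and binding was not measured.

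Per library, 18242129 to 86906527 reads fell on genes, and 17734 to 18625 genes were above 0. Values are normalized counts, the reads of a gene divided by a size factor of its library. Sox9 itself stood at 5185, 6562 and 4921 normalized counts in the control mice (replicates 1 to 3, the order kept for every gene) and at 52.6, 64.3 and 57.7 in the KO mice, a log2 fold change of −6.54 (adjusted p = 2.47e-09, limma with Benjamini-Hochberg adjustment). The label of astrocytes was checked against 12 astrocyte markers, Gfap and Slc1a2 among them. Their summed level was 544648 to 610700 in the controls and 39006 to 50942 in KO, and all 12 were lower in KO. The summed level of 15 microglia markers, such as Cx3cr1 and Csf1r, was 210080 to 239454 in the controls and 726151 to 843242 in KO, or 3.64 times as high, and 14 of the 15 were called higher, with Fcrls as the exception. In control libraries the astrocyte markers thus stood above the microglia markers, and in KO libraries far below them, so that by these markers the KO libraries went against their label of astrocytes. In such bulk samples, fewer cells of a type and less RNA per cell cannot be told apart.

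Interferon-stimulated genes were mostly higher in Sox9 KO. A gene was called when limma gave an adjusted p under 0.05 and the difference was at least 1.5-fold. By this rule 26 of the 40 members were higher in KO, none was lower, and 14 were not called (lower were 1 at an unadjusted p of 0.05 and none by edgeR or DESeq2). Of all 18413 genes tested, 22.2% were called higher and 28.8% lower, so that 56.4% of all calls were lower. That share was 43.2% after quantile normalization, 67.8% with libraries scaled to the same total and 71.5% with that total taken without Rn45s, a ribosomal RNA gene, and 24, 20 and 20 members were then called higher and 1, Rsad2, lower in each. The median log2 fold change of the members was 1.02, with a range from −0.70 to 2.61, against −0.07 over all genes. Every KO library lay above every control in 20 members and below in none, where 32.4% and 34.7% of all genes did so. The summed level of the 40 genes was 47641, 71564 and 109815 normalized counts in the 3 controls against 179863, 124450 and 170016 in KO, so that the groups did not overlap, and the ratio of the means was 2.07. An exact two-sided permutation test on 1 value per mouse could not go below p = 0.1 with groups of 3.

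**Figure D1:**
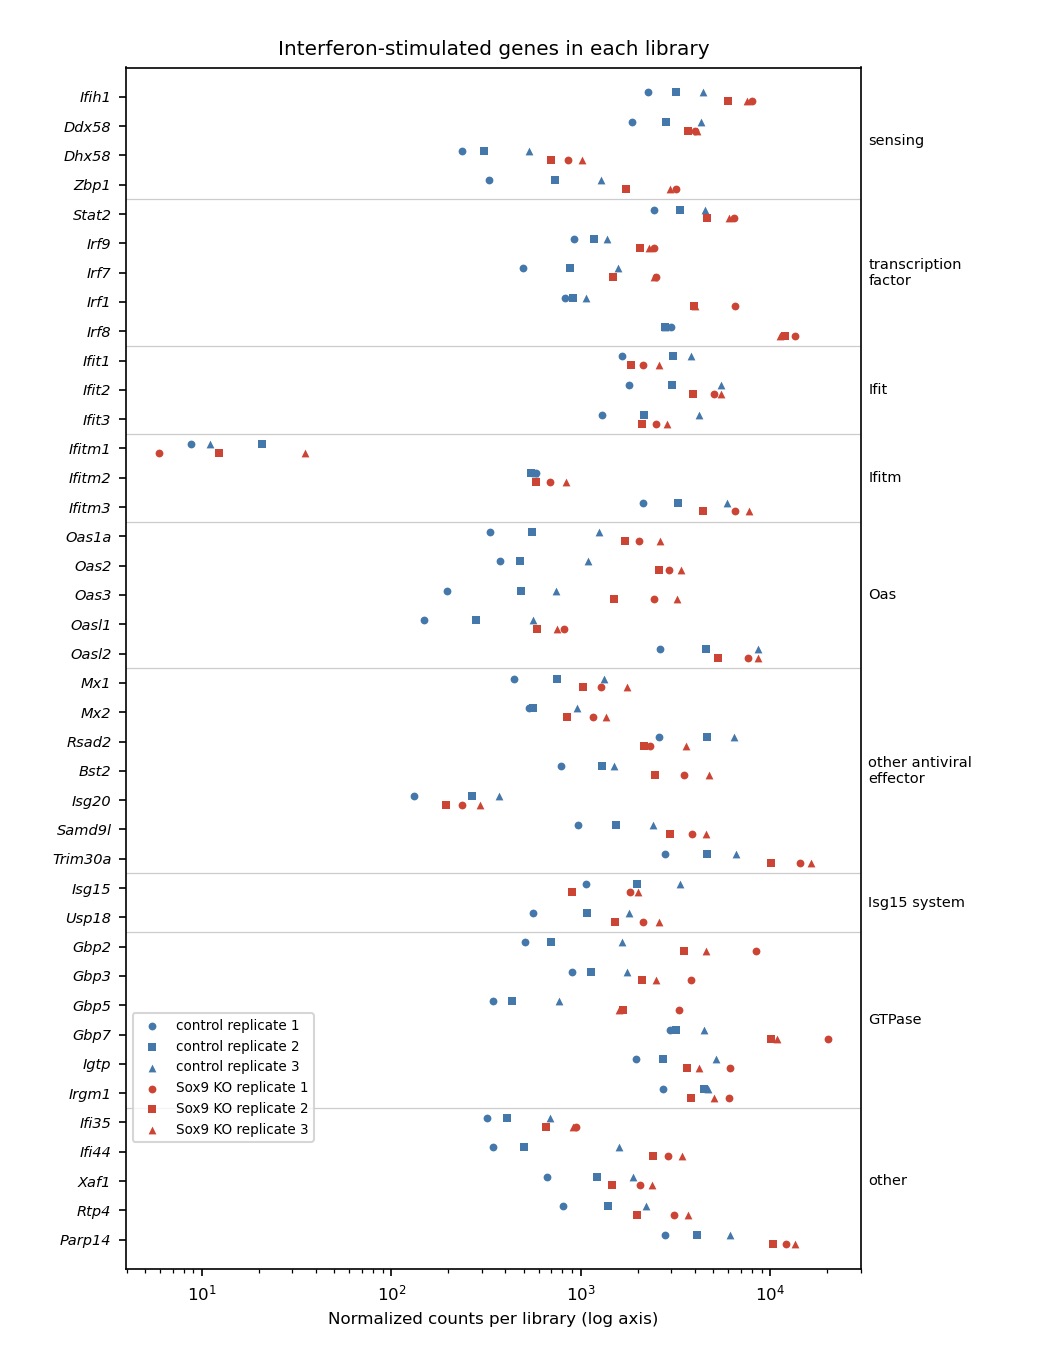
Normalized counts of the 40 interferon-stimulated genes, grouped by role, with 1 point per library on a log axis (blue, the 3 controls; red, the 3 Sox9 KO libraries; the shape gives the replicate). Irf1, Irf8 and Gbp7 have KO points well apart from the control points, while the points of Isg15 and Rsad2 overlap, and control replicate 3 lies to the right of the other controls in 37 of 40 rows.

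Between the groups, the microglia marker list rose as the members did, and its part in their change was not tested. Within the controls, the median log2 deviation from the group mean was −0.66 in replicate 1 and 0.66 in replicate 3 for the members. For the microglia markers it was 0.11 and −0.07. In KO replicates 1, 2 and 3 it was 0.105, −0.32 and 0.24 for the members and 0.109, 0.03 and −0.14 for the markers. What the values show directly is how the members stood per unit of the microglia markers, with each library scaled to the same summed level of the 15 markers. On this scale 21 members were called lower in KO and none higher (limma; also none at an unadjusted p of 0.05), where 79.3% of all genes were called lower and 1.08% higher. The median of the members was then −0.84, and that of all genes −1.82. In 13 members every KO library lay below every control, in 26 the groups overlapped, and in Irf8 every KO library lay above every control. The share of all genes without overlap was not counted on this scale. The counts of overlap are therefore not read as a result about the members. Since the scaling moved genes down in general, the counts of called members say no more than their place against the shares of all genes called.

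**Figure D2:**
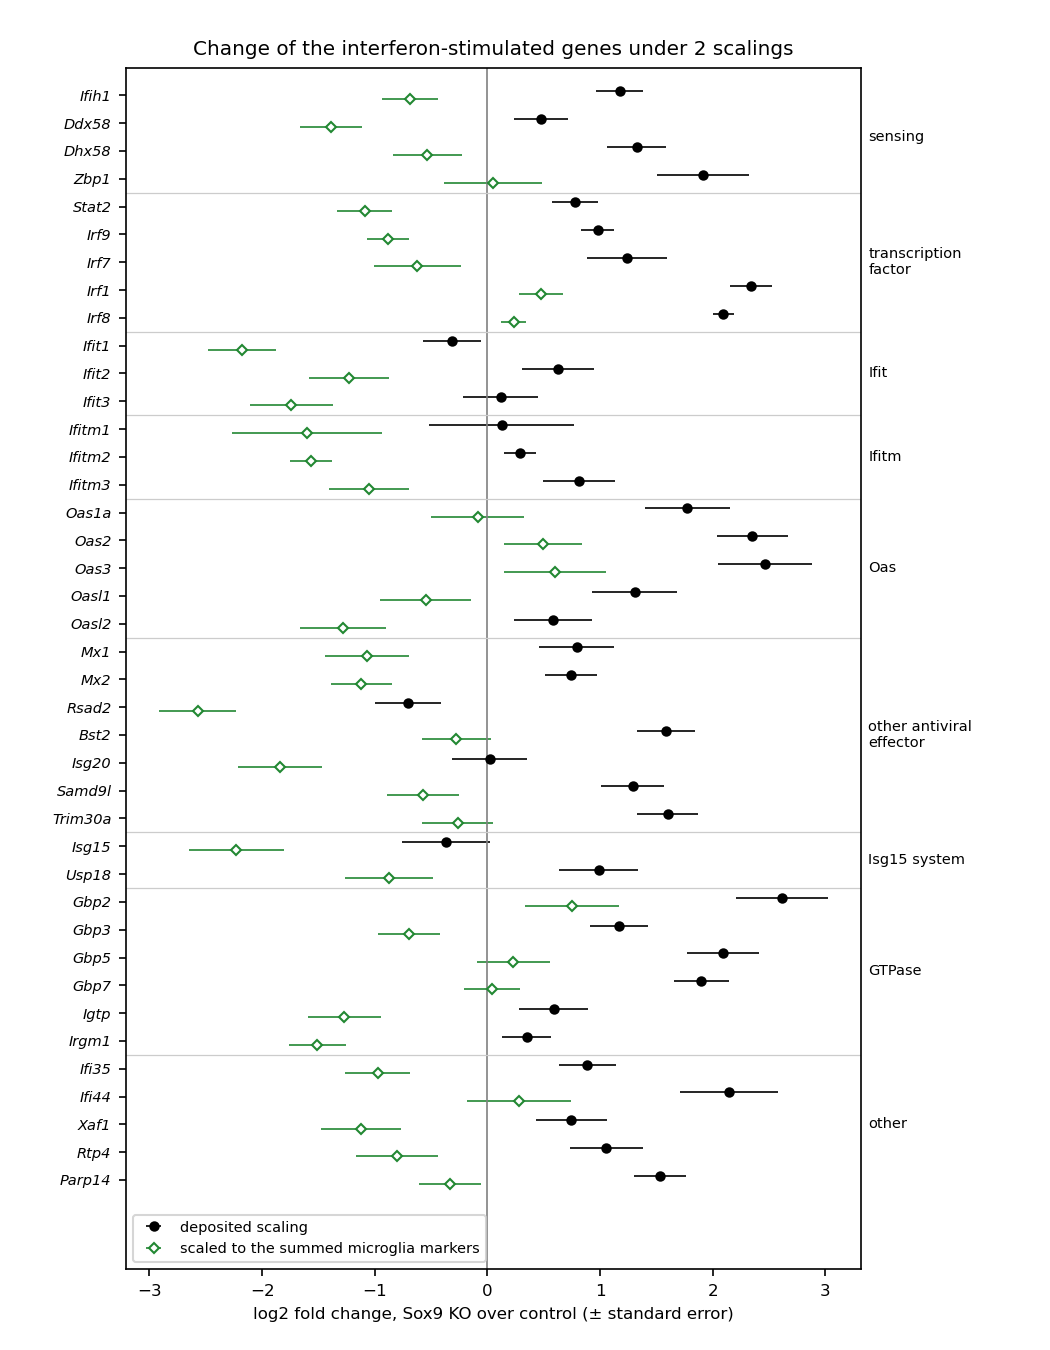
Log2 fold change of each member, Sox9 KO over control, with its standard error from limma, on the deposited scaling (black circles) and with each library scaled to the summed microglia markers (open green diamonds), by role. The black points lie to the right of 0 except for Ifit1, Isg15 and Rsad2, and most of the green points lie to the left of it.

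**Figure D3:**
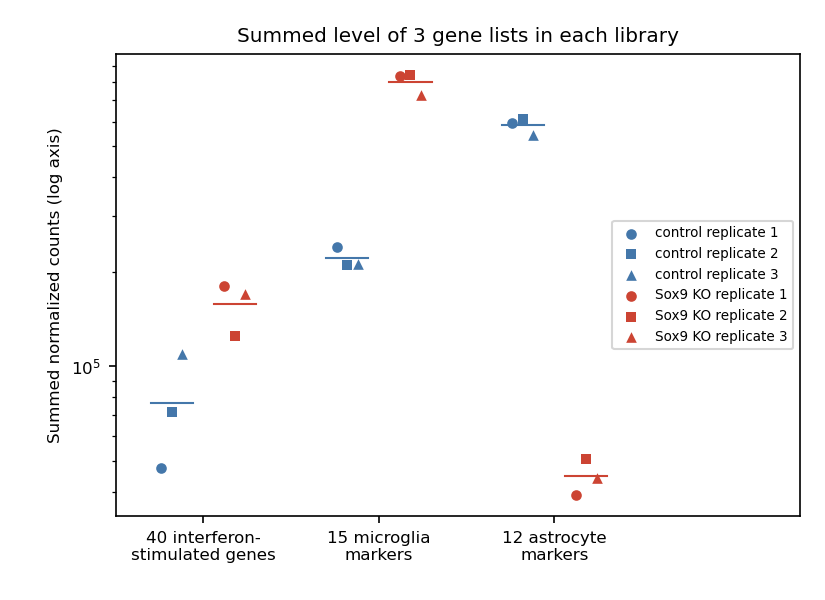
Summed normalized counts of the 40 interferon-stimulated genes, the 15 microglia markers and the 12 astrocyte markers in each library, on a log axis, with a line at the mean of each group. The microglia sum is 3.64 times as high in Sox9 KO and the interferon-stimulated sum 2.07 times, while the astrocyte sum falls, and the controls are spread most in the first list.

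Counts of called members by role, here and below, are to be read beside the shares of all genes tested, 22.2% called higher and 28.8% lower. Among the sensors of foreign nucleic acid, 3 of 4 were called higher, with a median log2 fold change of 1.25. Ifih1, which binds long double-stranded RNA in the cytosol, had the highest mean count of them, with 2253, 3171 and 4423 normalized counts in the controls and 8044, 5958 and 7582 in KO. All KO libraries were above all controls. The means were 3283 ± 1089 and 7195 ± 1096 (SD, n = 3 each), and the log2 fold change was 1.17 (SE, the standard error, 0.21, adjusted p = 0.000685, limma). Zbp1, a sensor of left-handed double-stranded nucleic acid that can trigger cell death, changed most of the 4. It had 329, 730 and 1274 normalized counts in the controls against 3192, 1735 and 2950 in KO, a log2 fold change of 1.91 (SE 0.41, adjusted p = 0.00211). Its groups did not overlap either, although the controls differed 3.87-fold among themselves. Dhx58, a regulator of RNA sensing, rose by 1.33 on the log2 scale. Ddx58, the sensor of RNA with a triphosphate end, had a log2 fold change of 0.48, under 1.5-fold, and was not called (adjusted p = 0.105, limma). Control replicate 3, at 4300 normalized counts, exceeded all KO libraries. Without that library its value was 0.78 (adjusted p = 0.00885).

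All 5 transcription factors were called higher, with a median of 1.24. Irf8, a factor that microglia and other myeloid cells need for their development, had the highest mean count, at 3009, 2786 and 2788 normalized counts in the controls and 13501, 11935 and 11333 in KO. The spread within either group was small beside the gap between them, with means of 2861 ± 128 and 12256 ± 1119 (SD, n = 3 each). Its log2 fold change of 2.10 had the smallest standard error of all 40 members (0.09, adjusted p = 4.07e-08, limma). Irf1, a factor best known as a target of interferon-gamma, changed most, from 821, 910 and 1066 to 6509, 3946 and 4023, with a log2 fold change of 2.34 (SE 0.18, adjusted p = 1.73e-06). Replicate 1 stood above the other KO libraries for Irf1. The 3 remaining factors carry the type I signal or amplify it. Stat2 and Irf9, which act in 1 complex, had log2 fold changes of 0.78 and 0.98 (Irf9 shares 123 of its 3102 exon bases with Rnf31), and Irf7, which drives the transcription of interferon genes, of 1.24. For Irf7 the groups overlapped, and the calls of Stat2 and Irf7 did not hold without every library: Stat2 lost its call without control replicate 1 or KO replicate 3 (0.55 and 0.73), and Irf7 without control replicate 2 or KO replicate 3 (adjusted p = 0.0597 and 0.0817).

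The effector families differed in how far they moved. None of the 3 Ifit genes, whose products bind foreign RNA ends and block its translation, was called, and their median was 0.12. Ifit2 had 1786, 3025 and 5485 normalized counts in the controls and 5067, 3926 and 5524 in KO, so that control replicate 3 lay among the KO libraries. Its log2 fold change was 0.63 (SE 0.32, adjusted p = 0.112), and it passed the rule when control replicate 3 was left out (1.04, adjusted p = 0.0107). Ifit1, named after its values were seen, was 1660, 3067 and 3821 in the controls against 2130, 1832 and 2593 in KO, with a log2 fold change of −0.31 (SE 0.26, adjusted p = 0.315). It was called lower without control replicate 1 (−0.66, adjusted p = 0.0106). Ifit3 was at 0.12 (SE 0.33), or at −0.12 after scaling all libraries to the same total, and its reads may be split with the nearly identical Ifit3b. In all 3 genes the lowest control was below, and the highest control above, the lowest KO library.

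The Ifitm proteins hinder viruses from entering through the cell membrane. Ifitm3 had the highest level per kilobase of exon of all members in both groups, 5554 ± 2864 normalized counts per kilobase for the controls and 9169 ± 2471 for KO (SD, n = 3 each), at 2128, 3259 and 5911 normalized counts in the controls and 6511, 4414 and 7725 in KO. Its groups overlapped, and its log2 fold change of 0.81 passed narrowly (SE 0.32, adjusted p = 0.0471, limma). The call rested on several libraries, since it was lost without control replicate 1 (0.46), control replicate 2 (0.77), KO replicate 1 (0.76) or KO replicate 3 (0.64). Ifitm2 had a log2 fold change of 0.29, and Ifitm1, with 5.96 to 34.9 normalized counts per library, of 0.13 with a standard error of 0.65, so that a change of its level was not detectable at this depth. Both turned negative after scaling all libraries to the same total without Rn45s (−0.17 for Ifitm1 and −0.038 for Ifitm2).

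Oas enzymes make short oligoadenylates that switch on the RNA-cutting enzyme RNase L, and this family had the highest median, 1.77, with 4 of 5 called. Oas3 had 197, 482 and 738 normalized counts in the controls and 2447, 1503 and 3205 in KO, a log2 fold change of 2.46 (SE 0.42, adjusted p = 0.00047, limma). The lowest KO library was thus above the highest control although the controls differed 3.74-fold among themselves. Oas2, next to Oas3 on chromosome 5, rose by 2.35 and Oas1a by 1.77, with Oas1a sharing much of its sequence with Oas1g, so that their reads may be divided uncertainly. The log2 fold changes of the Oas-like genes were smaller. Oasl1 had a log2 fold change of 1.31, and lost its call without control replicate 2 (adjusted p = 0.0619) or KO replicate 3 (adjusted p = 0.0718). Oasl2 had the highest mean count of the family, with 2629, 4590 and 8601 normalized counts in the controls and 7664, 5270 and 8664 in KO. The highest control was close to the highest KO library, and its log2 fold change of 0.58 (SE 0.35, adjusted p = 0.171) was not called, unless control replicate 3 was left out (1.02, adjusted p = 0.0223).

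Of the 7 other antiviral effectors, 4 were called higher and the median was 0.79. Trim30a, a regulator of inflammatory signals, had the highest mean count and changed most, from 2796, 4641 and 6570 normalized counts to 14381, 10087 and 16329. The KO libraries were all above the controls, with a log2 fold change of 1.60 (SE 0.27, adjusted p = 0.000482, limma). Reads of Trim30a may be shared with its close relatives on chromosome 7. Bst2, a tether that holds budding virus at the membrane, rose by 1.59, and Samd9l by 1.29. The transcripts of Mx1 and Mx2 had similar log2 fold changes, 0.79 and 0.74, of which only that of Mx2 was called (adjusted p = 0.0631 and 0.0179). Mx2 lost its call without control replicate 1, control replicate 2, KO replicate 1 or KO replicate 3 (0.59 to 0.71), and Mx1 gained one without control replicate 3 (1.19). Isg20, an RNA-degrading enzyme, was at 0.02, or at −0.22 after scaling all libraries to the same total. Rsad2, which makes a nucleotide that stops viral RNA synthesis, went the other way. It had 2573, 4660 and 6461 normalized counts in the controls and 2330, 2148 and 3585 in KO, with a log2 fold change of −0.70 (SE 0.30, adjusted p = 0.0608). It was named after its values were seen, as the member with the lowest log2 fold change. It was called lower without control replicate 1 (−1.07, adjusted p = 0.0061) and after scaling all libraries to the same total (−0.95, adjusted p = 0.0236).

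Isg15, a small protein that is attached to other proteins like ubiquitin, and Usp18, which removes it and also holds the receptor signal in check, had the same order of libraries within each group, and of these Usp18 was called higher and Isg15 was not. Isg15 had 1062, 1982 and 3342 normalized counts in the controls and 1819, 902 and 1995 in KO. The lowest and the highest of the 6 libraries were a KO and a control library, and the log2 fold change was −0.37 (SE 0.39, adjusted p = 0.432, limma). Without control replicate 3 it was 0.033. In control libraries Isg15 ranked 2 of the members per kilobase, at 2816 ± 1517, and in KO it ranked 10, at 2079 ± 776 (SD, n = 3 each). Usp18 had 557, 1077 and 1792 normalized counts in the controls and 2140, 1513 and 2592 in KO, with a log2 fold change of 0.99 (SE 0.35, adjusted p = 0.0314). Its call was lost without control replicate 1 (0.55), control replicate 2 (1.02), KO replicate 1 (0.95) or KO replicate 3 (0.81).

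The interferon-inducible GTPases attack the membranes of vacuoles that hold microbes, and 4 of the 6 were called higher, all of them guanylate-binding proteins of the cluster on chromosome 3. Gbp7 had the highest mean count, at 2967, 3190 and 4467 normalized counts in the controls and 20092, 10041 and 10900 in KO. Its log2 fold change was 1.90 (SE 0.24, adjusted p = 6.12e-05, limma), and every KO library was far above every control. Gbp2 had the largest log2 fold change of all members, 2.61 (SE 0.41, adjusted p = 0.000249), from 508, 696 and 1644 to 8394, 3505 and 4557. In both genes KO replicate 1 stood well above the other KO libraries. Gbp5, which also helps to start inflammasomes, rose by 2.09 and Gbp3 by 1.17. Reads of these related genes may be divided uncertainly. Igtp and Irgm1, on chromosome 11, belong to the other GTPase family of the list, and had log2 fold changes of 0.59 and 0.35 that were not called. Igtp shares 162 of its 2022 exon bases with Irgm2, and was called without control replicate 3 (0.98, adjusted p = 0.0136). Igtp and Irgm1 do not stand for their whole family, and relatives outside the members were named after their values were seen. Ifi47, Iigp1, Irgm2, Tgtp1 and Tgtp2 had log2 fold changes of 2.18, 2.90, 1.55, 2.79 and 2.80 and were called higher.

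Of the 5 members outside these families 4 were called higher, with a median of 1.06. Parp14, an ADP-ribosyltransferase, had the highest mean count, from 2800, 4111 and 6122 normalized counts in the controls to 12110, 10363 and 13581 in KO, a log2 fold change of 1.53 (SE 0.23, adjusted p = 0.000203, limma). Ifi44 changed most, from 343, 501 and 1589 to 2877, 2399 and 3442, a log2 fold change of 2.15 (SE 0.44, adjusted p = 0.00163). In both genes the groups did not overlap, and for Ifi44 control replicate 3 alone was near the KO libraries. Rtp4, Ifi35 and Xaf1 had log2 fold changes of 1.06, 0.89 and 0.74, with overlapping groups. Xaf1, which promotes cell death, was not called (adjusted p = 0.0638) unless control replicate 3 (1.1) or KO replicate 2 (0.94) was left out. Rtp4 and Ifi35 lost their calls without control replicate 1 (0.68 and 0.65), control replicate 2 (1.08 and 0.82) or KO replicate 3 (0.87 and 0.82).

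Over the 26 called members, 18 kept their call when each of the 6 libraries was left out in turn, and the other 8 (Stat2, Irf7, Ifitm3, Oasl1, Mx2, Usp18, Ifi35 and Rtp4) lost it without at least 1 library. The 18 kept it under 17 alternatives, the 6 that leave out a library among them, which exclude the scalings to microglia markers and the looser thresholds.

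The controls differed among themselves more in these genes than in the median of all genes. The median ratio of the highest to the lowest control was 2.5 over the 40 members, against 1.30 over all genes, 1.21 over the 11926 genes with a mean of at least 100 and 1.2 over the microglia markers. Control replicate 3 was the highest control in 37 of the 40 members and control replicate 1 the lowest in 38, against 6311 and 6431 of all 18413 genes tested. Relative to the group mean, the median log2 deviation of the members was −0.66, −0.01 and 0.66 in control replicates 1, 2 and 3, and that of all genes was within 0.00364 of 0. Most of the set thus stood apart together in replicates 1 and 3, with medians from −0.32 and 0.27 in the transcription factors to −0.88 and 0.91 in the Oas family. Irf8 did not follow this order, with 3009, 2786 and 2788 normalized counts in the controls. The median of the Ifitm genes was an exception in replicate 3, at 0.014. Of these, Ifitm1 and Ifitm2 did not follow the order of the controls, and Ifitm3 did, with 2128, 3259 and 5911 normalized counts. The order was not particular to the members. In the 35 further interferon-stimulated genes tested, control replicate 1 was the lowest control in all 35 and replicate 3 the highest in all 35, with median deviations of −0.50 and 0.55. Markers of other cells were spread too, with neutrophil markers at −1.32 in control replicate 1 and 1.75 in replicate 2, oligodendrocyte markers at −0.63 in replicate 1, and endothelial markers at 0.35 in replicate 3, the highest control for all 7. In the members the KO libraries differed less, with a median ratio of highest to lowest of 1.61. In KO that ratio was 1.32 over all genes, 1.23 over genes with a mean of at least 100 and 1.35 over the microglia markers. The median SD of log2 values of the members was 0.35 in KO and 0.67 in control.

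**Figure D4:**
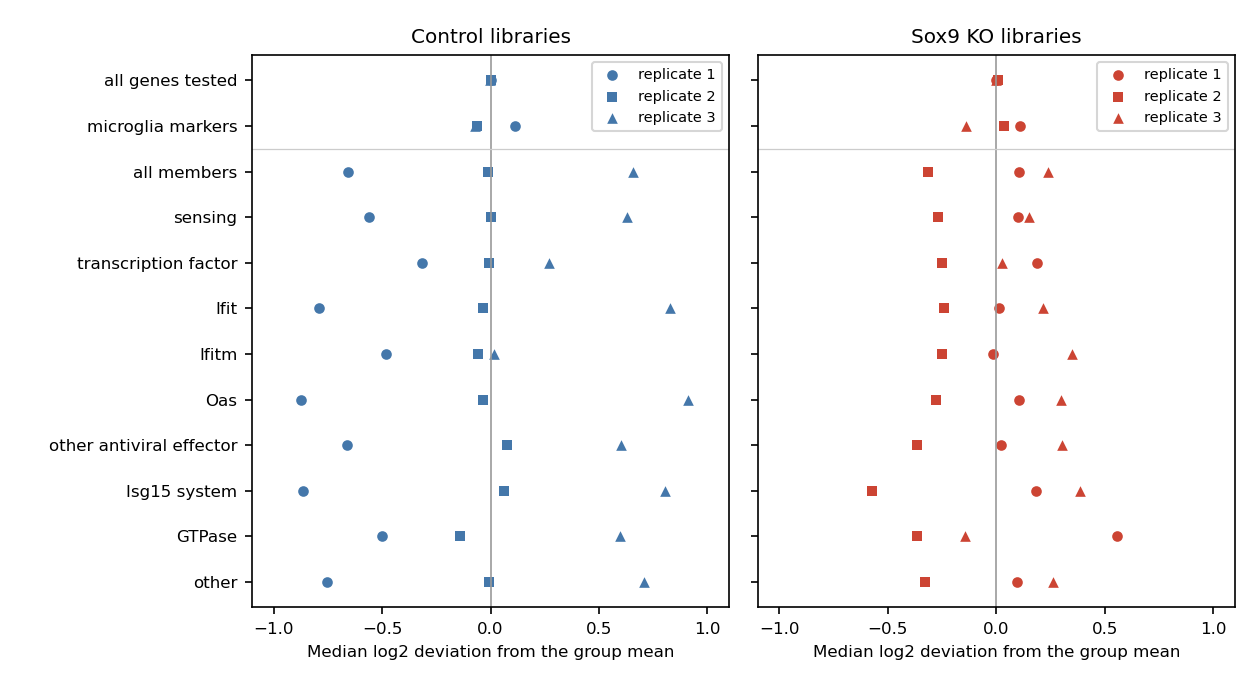
Median log2 deviation of each library from the mean of its group, for all genes tested, the microglia markers, all 40 members and each role, in the control libraries (left panel) and the Sox9 KO libraries (right panel). All genes lie at 0 while the members spread from −0.66 to 0.66 in the controls, and KO replicate 1 is farthest to the right for the GTPases (0.56).

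Within KO, the libraries were ordered differently by role. KO replicate 2 was the lowest in 37 of the 40 members, against 5830 of all 18413 genes tested. Over all genes tested, KO replicates 1 and 3 were the highest in 6036 and 5908. KO replicate 1 was the highest for all 6 GTPases and all 5 transcription factors, with a median log2 deviation of 0.56 for the GTPases, where KO replicate 3 had −0.14. KO replicate 3 was the highest for all 3 Ifit genes, all 7 other antiviral effectors, all 3 Ifitm genes and both genes of the Isg15 system. This ordering rests on 1 library per mouse and was not tested.

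Genes that make or carry the interferon signal were read from fixed lists, chosen with earlier results of these data known. Of 85 listed genes 68 were tested, of which 53 were called higher and 2 lower, with a median log2 fold change of 1.36. Of all genes tested, 22.2% were called higher and 28.8% lower, and the counts of each list below are to be read beside these shares. Interferons themselves were barely read. Of 21 ligand genes 11 had 0 reads in all libraries, which allows up to 3 reads in each, 5 had 1 to 3 reads in all, and the highest count of a ligand in any library was 60 reads. None of the 5 tested was called by limma, nor passed at an unadjusted p of 0.05 and 1.5-fold. Ifnb1, the interferon beta gene, had 29.2, 20.6 and 94.6 normalized counts in the controls and 30.8, 18.2 and 22.8 in KO, so that control replicate 3 stood highest, the same library in which most members were high. Ifng, which encodes interferon-gamma, had 8.77, 4.13 and 23.6 in the controls and 57.6, 4.74 and 9.12 in KO, highest in KO replicate 1, where the GTPases were highest. Whether these transcripts had a part in the order of the libraries was not tested. Ifnk (3.55 to 14.9), Ifnz (0 to 7.90) and Ifna2 (0 to 6.30) were low, where 3 reads were worth 1.18 to 4.73 normalized counts.

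Of the 6 receptor genes 5 were called higher. The other, Ifnlr1, a receptor chain for type III interferon, named after its values were seen, had 24.8, 23.4 and 23.6 normalized counts in the controls and 2.98, 3.55 and 24.3 in KO, a log2 fold change of −1.69 that was not called (adjusted p = 0.0548, limma). Ifngr1, the ligand-binding chain for interferon-gamma, had 5492, 4281 and 3580 normalized counts in the controls and 20603, 17057 and 15913 in KO, a log2 fold change of 2.02. Ifnar1 and Ifnar2, the chains for type I interferon, rose by 0.59 and 1.51. Each KO library exceeded each control for all 3. All 3 of the receptor kinases were called higher. Jak1 and Jak2 rose by 0.80 each, with control values of 5823 to 6173 and 1987 to 2238. Tyk2, a kinase of the type I receptor, rose by 1.36 (SE 0.12, adjusted p = 3.73e-06, limma). For all 3 kinases every KO library lay above every control, as in 32.4% of all genes.

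Of the 6 inhibitors of the receptor signal, 4 were called higher and 1 lower. Socs3, which is induced by cytokines and blocks their receptors, rose by 1.75, Ptpn6, a phosphatase of blood cells, by 2.30 and Pias1 by 1.41. Ptpn11, a phosphatase named after its values were seen, fell by 0.73 (adjusted p = 0.000127, limma). Upstream of the interferon genes, 11 of the 13 sensors and adaptors were called higher and none lower. The endosomal receptor Tlr7 rose by 1.93, and Trim25, a ubiquitin ligase of RNA sensing, by 0.98. Tlr3 had 10060, 8697 and 10863 normalized counts in the controls and 7418, 6792 and 6756 in KO, below all controls, with a log2 fold change of −0.49 that did not reach 1.5-fold (adjusted p = 0.00163).

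Among 35 further interferon-stimulated genes that were tested, 30 were called higher and 1 lower, with a median of 1.47. The 3 with the highest means, Lgals3bp, Ifi204 and Slfn5, rose by 0.87, 1.79 and 1.39. Cmpk2, the neighbour of Rsad2 on chromosome 12 and, like the other genes that follow, named after its values were seen, had 1153, 1841 and 2435 normalized counts in the controls and 882, 735 and 1191 in KO, a log2 fold change of −0.91 (adjusted p = 0.00951). Scaled to the microglia markers, where 79.3% of all genes were called lower and 1.08% higher, 28 of the 68 pathway genes were called lower and 3 higher, which were Gbp4 (1.52), Iigp1 (1.04) and Tgtp2 (0.94).

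**Figure D5:**
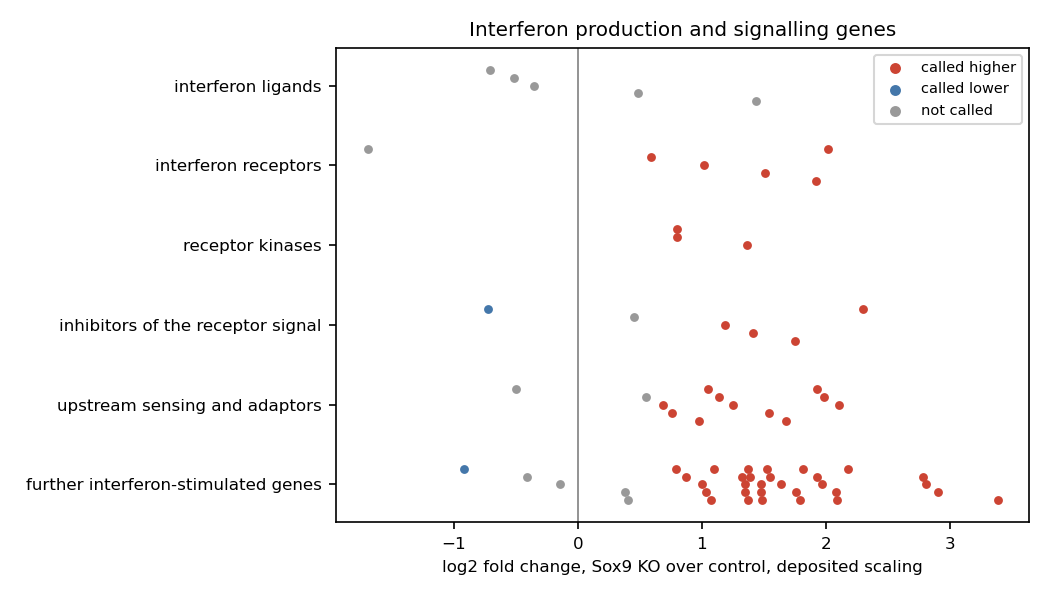
Log2 fold change, Sox9 KO over control on the deposited scaling, of each tested gene in 6 lists of interferon production and signalling genes, with 1 point per gene (red, called higher; blue, called lower; grey, not called; vertical offsets only separate points). The kinases, most receptors and most further interferon-stimulated genes lie to the right of 0, with Cmpk2 and Ptpn11 the called genes to its left.

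Markers of other cells the sort could hold were read as well, and their part in the results was not tested. Of 12 neuron markers 11 and of 6 oligodendrocyte markers all were lower in KO. Neutrophil markers summed to 585 to 4996 normalized counts in the controls, highest in replicate 2, and to 121 to 584 in KO. The markers of T and NK lymphocytes, a source of interferon-gamma, summed to 194 to 378 in the controls and 568 to 737 in KO, of which Cd4, also found on myeloid cells, made up most, while Cd3d, Cd3e and Cd3g lay between 0 and 19.9 in every library. Of 9 markers of border macrophages and monocytes 3 were higher and 4 lower. Of 7 endothelial markers 1 was higher and 4 were lower, and of 6 markers of B lymphocytes and plasma cells 2 were higher. Among all genes tested 22.2% were called higher and 28.8% lower, so that these counts say no more than their place against those shares.

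Scaling to the microglia markers shifts the log2 fold changes of the members by a nearly constant amount, so that the members lowest before it were also lowest after it. On it Rsad2 was 10747, 22181 and 30589 parts per 1000000 of the summed microglia markers in the controls and 2793, 2547 and 4937 in KO, a log2 fold change of −2.57 (SE 0.34, adjusted p = 2.37e-05, limma). Isg15 was 4437, 9434 and 15821 against 2180, 1070 and 2747 (log2 fold change −2.23, adjusted p = 0.000399), and Ifit1 had a log2 fold change of −2.18. For these genes every KO library was below every control. Irf8, at 12566, 13264 and 13201 parts in the controls and 16184, 14153 and 15607 in KO, was above them in every KO library, and its log2 fold change of 0.23 (adjusted p = 0.072) was not called. Gbp2, Oas3, Oas2 and Irf1 had log2 fold changes of 0.48 to 0.75 with overlapping groups.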

How the data were processed

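Sorted cells of the olfactory bulb were profiled by bulk RNA-seq (Trio RNA-Seq System, 10 ng total RNA), with 1 library from each of 6 mice, and grouped by the genotype given in the labels. The authors aligned reads to mm10 with STAR 2.5.0a. GenomicAlignments and GenomicFeatures gave the reads of each gene, and DESeq2 1.20.0 their normalization. The submitters' processing notes also name FastQC and MultiQC. No source used here names the annotation or the use of strand. The deposited signal, 1 value per gene and library named RPM, was found to be whole reads divided by 1 size factor per library: 100% of values gave whole reads within 0.01 read. Depth was 18242129 to 86906527 reads on genes, so that 1 read was worth 0.395 to 1.58 normalized counts. Ribosomal Rn45s took 14.2% to 22.4% of the values.

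Genes with a mean of at least 1 were fitted in limma 3.58.1 (R 4.3.3) as log2(normalized count + 1), letting the variance follow the mean level, with Benjamini-Hochberg adjustment over all 18413 genes. Fold changes are on that scale, which understates changes of low genes. No covariate or replicate block was used. Alternatives were pseudocounts of 0.1 and 5, other filters, quantile normalization, scaling to the total with and without Rn45s or to the microglia markers, limma without trend, edgeR 4.0.16 and DESeq2 1.42.0 on the recovered reads, a replicate block, leaving out each library, and other thresholds. The test was also run on simulated data, whose noise followed the trend over all genes. The members were spread more widely in the controls, so that run does not tell what was missed among them. Libraries of a group differed beyond sampling noise (chi-square per degree of freedom 19.4 to 67.4). Columns of unmapped values numbered 0.

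The members and lists were chosen with earlier results of these data known. In each role the member with the highest mean and that with the largest absolute log2 fold change were given in every library, and in each pathway list the 3 genes with the highest mean and the ligands detected were named. Of the pathway lists 1 gene is not reported here and was left out of their counts. Levels per kilobase used GENCODE M21 exons.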

Additional observations from a re-analysis of the deposited data

How the results depend on the processing

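Of the 26 members called higher, 18 stayed called under 17 alternatives, which exclude the scalings to microglia markers and the looser thresholds. The count was 24 after quantile normalization, 20 with the same total, 25 by edgeR, 22 by DESeq2 and 18 without trend. Leaving out each library gave 18 to 32 called higher and 0 to 2 called lower, and 47 to 53 and 1 to 3 pathway genes. The median of the members was 0.75 to 1.40, and that of Sox9 stayed between −6.63 and −6.42. The other scalings moved the median of all genes by 0.27 (quantile), −0.23 (same total), −0.31 (same total without Rn45s) and −1.75 (summed microglia markers). With 3 libraries a group and controls that differ 2.5-fold, small changes of the members are not resolved.

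Members called lower numbered 1 after quantile normalization, with either total and at an unadjusted p. With a replicate block, 29 members were called higher and 1 lower. Same-numbered control and KO libraries did not deviate together over all genes tested (correlations of −0.0513, −0.0134 and −0.013). Whether the numbers pair the mice cannot be settled from these correlations. Pathway genes called lower were 4 with either total, 1 without trend and 1 without control replicate 2 or 3.

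Scaling to the summed microglia markers left 0 members higher and 21 lower, with a median of −0.84, and 3 pathway genes higher and 28 lower. Scaling to the geometric mean of these markers, chosen after seeing the data, left 0 and 21, with a median of −0.82. By construction these scalings lower every gene that rose less than the markers. The log2 fold changes that turned negative under the summed scaling were −0.69 for Ifih1, −1.39 for Ddx58, −0.53 for Dhx58, −1.09 for Stat2, −0.88 for Irf9, −0.62 for Irf7, −1.23 for Ifit2, −1.74 for Ifit3, −1.60 for Ifitm1, −1.57 for Ifitm2, −1.05 for Ifitm3, −0.087 for Oas1a, −0.55 for Oasl1, −1.28 for Oasl2, −1.07 for Mx1, −1.12 for Mx2, −0.28 for Bst2, −1.84 for Isg20, −0.57 for Samd9l, −0.26 for Trim30a, −0.87 for Usp18, −0.69 for Gbp3, −1.27 for Igtp, −1.51 for Irgm1, −0.97 for Ifi35, −1.12 for Xaf1, −0.81 for Rtp4 and −0.33 for Parp14.

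Apart from these scalings, 5 members near 0 changed sign, and the cause was not tested. Ifit3 went to −0.063 after quantile normalization, −0.12 and −0.21 with either total, −0.039 by DESeq2 and between −0.29 and 0.57 with each library left out. Ifitm1 went to −0.093 and −0.17 with either total and to between −0.51 and 0.68 with each library left out. Ifitm2 went to −0.038 with the total without Rn45s. Isg20 went to −0.22 and −0.31 with either total, −0.037 by edgeR, −0.088 by DESeq2, and between −0.40 and 0.35 with each library left out. Isg15 went from −0.79 without control replicate 1 to 0.033 without control replicate 3.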
